A study of Danio rerio with 56 samples.

Results

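The 7 genes described here make enzymes of retinoid metabolism: cyp26a1, cyp26b1, cyp26c1, aldh1a2, aldh1a3, retsat and retsatl. They were found by symbol among the 32520 genes of the deposited count table, and all 7 of 7 listed symbols matched 1 gene each. The set was built around cyp26b1 and retsatl with their levels in these libraries already known. These 2 genes are therefore described by their values, with fold changes and standard errors (SE) but no test. The other 5 members were tested, also with earlier results of these data known.

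Retinoic acid, made from vitamin A, binds nuclear receptors in the cell and sets which genes are read in the embryo, the eye and the gonad. Retinaldehyde dehydrogenases of the aldh1a family make it, and cytochromes of the cyp26 family oxidize and clear it, so that tissues can hold sources and sinks side by side. In mice, Cyp26b1 keeps retinoic acid away from germ cells of the fetal testis. Retinol saturase, the product of RETSAT in mammals, instead reduces all-trans-retinol to a dihydroretinol.

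Whole AB-strain zebrafish were collected at 2, 8, 16, 32 and 64 d in pools of 25. The sex of the fish is not given. Each pool gave 1 library of polyadenylated RNA. All fish were kept in water with the solvent DMSO, for which the labels give 100 per litre, in µg in one place and in µl in another. The 4 treatments were DMSO alone, the aromatase inhibitor exemestane (EM) at 10 µg/L, 17β-estradiol (E2) at 100 ng/L, and both together (EM+E2), given without a break up to sampling. Aromatase makes oestrogens from androgens, and E2 is the main oestrogen. There were 20 groups of 3 libraries, or of 2 in these cases: at 64 d all exposed groups, and at 2 d the solvent and the joint exposure. Whether pools were raised in separate tanks is not stated, so p-values measure only the spread between these libraries.

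Of 56 libraries 55 were used, with 4039030 to 10144213 counted reads and a median of 9107346. Levels are CPM, the counts of a gene scaled to the library's total count, given as mean ± SD. In RNA of whole fish, fewer cells of a type and less RNA per cell cannot be told apart. A few libraries stood apart from the rest. At 2 d, DMSO replicate 1, EM replicates 1 and 2 and E2 replicates 1 and 2 had summed levels of 9 liver markers of 62.7 to 325 CPM, against 1940 to 3360 CPM in the other libraries of that age, and those of 9 intestine markers were 18.1 to 113 CPM against 614 to 799 CPM. At 8 d these sums were 842 and 816 CPM in EM replicate 1 and 146 and 468 CPM in EM+E2 replicate 3, against 1530 to 2800 CPM of liver and 1510 to 3090 CPM of intestine markers in the others. At 16 d they were 604 and 610 CPM in EM replicate 1 and 281 and 98.0 CPM in E2 replicate 1, against 2540 to 10200 and 1740 to 3690 CPM. At 32 d, DMSO replicate 2 had the fewest genes with a read (20791), 3330 CPM of the liver markers, against 8900 to 19000 CPM in the other libraries of that age, and a retina marker sum of 5250 CPM, against 548 to 2160 CPM. At 2 d, E2 replicate 1 also had a retina marker sum of 4660 CPM, against 54.2 to 387 CPM in the other libraries of that age. Its brain marker sum was 4880 CPM, against 1650 to 3000 CPM. The 3 treatments of an age were compared with the same DMSO libraries, so their fold changes share those controls.

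**Figure D1:**
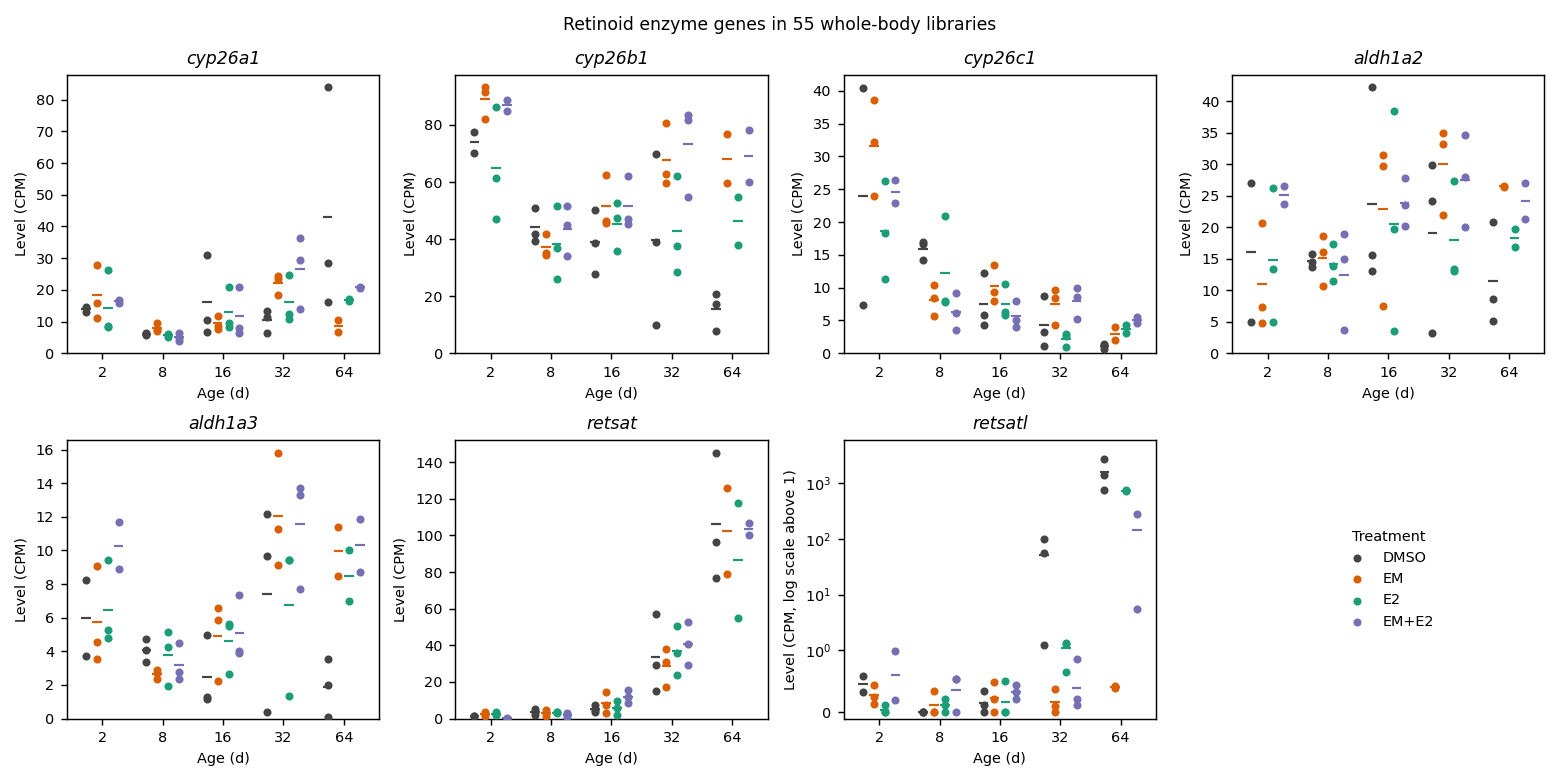
Level of each of the 7 genes (CPM; for retsatl on a log scale above 1 CPM) at each age in days, with 1 point for each of the 55 libraries, coloured by treatment, and a short line at each group's mean. The mean of DMSO at 64 d is the lowest for cyp26b1, aldh1a3 and cyp26c1, though single libraries of other groups lie among its points, retsat is highest at 64 d in all 4 treatments, and retsatl is high in DMSO and E2 but not in EM at 64 d.

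Cyp26b1 (ENSDARG00000077121) clears retinoic acid, and in the solvent its transcript was most abundant in the youngest fish. At 2 d the DMSO libraries had 70.3 and 77.7 CPM, those in EM 82.1, 91.4 and 93.4 CPM, those in E2 47.1, 61.3 and 86.3 CPM, and those in EM+E2 84.9 and 88.8 CPM. By 8 d the DMSO libraries had 39.5 to 51.0 CPM, below all 2 d DMSO libraries, with a log2 fold change of -0.93 (SE 0.43) in edgeR's fit, whose scaling is by trimmed means (TMM). In that step 21.3 percent of all genes fell without overlap. At 16 d the solvent libraries had 27.8 to 50.3 CPM, which overlaps the 8 d values.

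The treatments parted at the later ages. At 32 d the DMSO libraries spread from 9.83 to 69.9 CPM, with the lowest value in replicate 2. EM had 59.6, 62.9 and 80.7 CPM and EM+E2 had 54.8, 81.6 and 83.6 CPM, all inside or above the range of the solvent. The log2 fold changes against DMSO were 0.62 (SE 0.38) in EM, 0.38 (SE 0.38) in E2 and 0.79 (SE 0.38) in EM+E2. They were 0.29, 0.05 and 0.47 without DMSO 32 d replicate 2, and 1.08, 0.83 and 1.24 without replicate 3, so their size at this age depends on which solvent libraries are used.

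At 64 d the groups separated. The DMSO libraries had 17.4, 7.76 and 20.9 CPM, the E2 libraries 54.8 and 38.1 CPM, the EM libraries 59.6 and 76.9 CPM, and the EM+E2 libraries 78.4 and 60.1 CPM. Every library of the 3 exposures lay above every DMSO library, as did those of 33.2 percent of all genes in EM, 26.2 percent in E2 and 33.5 percent in EM+E2. For cyp26b1 the E2 libraries lay below those in EM and EM+E2. Over all genes 20.8 percent lay wholly higher in EM+E2 than in E2, and this share was not taken for EM and E2. Against DMSO the log2 fold change was 2.12 (SE 0.35) in EM, 1.53 (SE 0.35) in E2 and 2.16 (SE 0.35) in EM+E2. EM+E2 differed from EM alone by 0.04 (SE 0.38) and from E2 alone by 0.63 (SE 0.38).

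The gap at 64 d came with a lower mean level in the ageing solvent fish. The solvent libraries of 32 and 64 d overlapped, as DMSO 32 d replicate 2 had 9.83 CPM. Between 32 and 64 d the log2 fold change of cyp26b1 was -1.46 (SE 0.40) in DMSO, or -0.99 without DMSO 32 d replicate 3, while it was 0.23 (SE 0.41) in EM, -0.17 (SE 0.42) in E2 and 0.10 (SE 0.41) in EM+E2. Of the 20 groups, DMSO at 64 d had the lowest mean (15.3 ± 6.79 CPM, n = 3), and its libraries did not overlap those of the next lowest group, EM at 8 d (37.2 ± 3.97 CPM, n = 3). Other tissue markers moved with it. The summed level of 10 brain markers was 445 to 716 CPM in the 3 DMSO libraries at 64 d, against 814 to 1420 CPM in the 6 exposed libraries, and that of 13 oocyte markers was 3990 to 9400 CPM in DMSO, 3160 and 3210 CPM in E2, 29.9 and 1090 CPM in EM+E2, and 5.56 and 6.48 CPM in EM. No brain marker was at 0 in these libraries, and their part in the difference was not tested.

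Cyp26a1 (ENSDARG00000033999), the relative that helps to pattern the zebrafish hindbrain by clearing retinoic acid, had its lowest 64 d levels in EM. At 64 d DMSO replicates 1, 2 and 3 had 83.9, 16.3 and 28.6 CPM and the EM libraries 6.68 and 10.4 CPM. The E2 libraries had 17.0 and 16.5 CPM and the EM+E2 libraries 20.8 and 20.7 CPM. All EM libraries lay below all others of this age, whereas E2 and EM+E2 lay inside the wide range of the solvent, whose highest value came from replicate 1. In EM 24 percent of all genes lay wholly below DMSO at this age, and 16.6 percent wholly below EM+E2. This share was not taken for EM and E2.

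In EM at 64 d, cyp26a1 fell by 2.38 on the log2 scale (SE 0.61, edgeR adjusted p = 0.0165). Here and below, the adjusted p is that of edgeR's quasi-likelihood test, adjusted by Benjamini and Hochberg's method across the genes tested, and passing means an adjusted p under 0.05. The edgeR call was lost without EM replicate 1 (log2 fold change -2.14, adjusted p = 0.122) or EM replicate 2 (-2.67, adjusted p = 0.0788). The edgeR log2 fold change was -1.45 in E2 (SE 0.57, adjusted p = 0.144; DESeq2 0.0477) and -1.08 in EM+E2 (SE 0.57), neither of which passed in edgeR.

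The EM libraries did not lie low at 32 d. There they had 18.5, 23.4 and 24.4 CPM, and the DMSO libraries 11.3, 6.42 and 13.4 CPM. The edgeR log2 fold change of cyp26a1 in EM at that age was 0.78 (SE 0.40, adjusted p = 0.679). The difference between the EM effects at 64 and 32 d was -3.24 (SE 0.75, edgeR adjusted p = 0.0133), in a comparison where 7.29 percent of all genes passed. It was lost without EM 64 d replicate 1 or 2 (edgeR adjusted p = 0.105 and 0.0663). Of the 5 tested members, cyp26a1 was the 1 whose difference between these ages passed for EM.

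In the solvent, cyp26a1 rose between 32 and 64 d (10.4 ± 3.59 to 42.9 ± 36.0 CPM, n = 3 and 3; log2 fold change 1.80, SE 0.56, edgeR adjusted p = 0.0348). The rise rested largely on DMSO 64 d replicate 1, without which the log2 fold change was 0.88 (edgeR adjusted p = 0.268). It also missed the threshold without DMSO 32 d replicate 1 (edgeR adjusted p = 0.0885), 32 d replicate 3 (0.084) or 8 d replicate 2 (0.0503). At the earlier ages its mean level in DMSO was 13.9 CPM at 2 d, 6.05 CPM at 8 d and 16.2 CPM at 16 d, and no step passed.

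Cyp26c1 (ENSDARG00000056029), the third enzyme of the family, is known in the embryonic head. In the solvent its mean level was 24.0 CPM at 2 d, 15.9 at 8 d, 7.45 at 16 d, 4.35 at 32 d and 1.06 CPM at 64 d. The 2 libraries at 2 d had 7.43 and 40.5 CPM, the first being the one with few liver marker reads, while those at 64 d had 1.06, 0.638 and 1.47 CPM. Of these steps the last passed (log2 fold change -2.11, SE 0.63, edgeR adjusted p = 0.0298). It no longer passed without any 1 of the DMSO 64 d libraries (edgeR adjusted p = 0.0559 to 0.0979), without DMSO 32 d replicate 3 (log2 fold change -1.39, adjusted p = 0.151), without DMSO 16 d replicate 2 (0.0542) or with the reads recovered from the authors' normalized table (0.0979). Here and below, fits of the recovered reads lack DMSO 64 d replicate 3, whose reads were not recovered.

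At 64 d cyp26c1 was higher in the exposed libraries than in the solvent. EM+E2 had 5.50 and 4.65 CPM, E2 had 4.35 and 3.08 CPM, and EM had 1.99 and 3.99 CPM, all above DMSO, as for 26.2 to 33.5 percent of all genes. The rise passed in EM+E2 (log2 fold change 2.23, SE 0.50, edgeR adjusted p = 0.0109), although not without EM+E2 replicate 1 (adjusted p = 0.0867). The edgeR log2 fold change was 1.72 in E2 (SE 0.50, adjusted p = 0.0928) and 1.44 in EM (SE 0.50, adjusted p = 0.0539), which did not pass. Both passed with the recovered reads, which lack DMSO replicate 3 (edgeR adjusted p = 0.0482 in E2 and 0.0238 in EM). With the count table EM also passed with all libraries in 1 fit (0.0355) or without DMSO replicate 3 (0.0427). All 9 libraries at 64 d together held 29 reads of this gene in DMSO, 58 in EM, 73 in E2 and 91 in EM+E2, so counting error is large.

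On the side of synthesis, aldh1a3 (ENSDARG00000076933), a dehydrogenase known from the eye and nose of vertebrate embryos, was like cyp26b1 higher in all exposures at 64 d. At 64 d DMSO replicates 1, 2 and 3 had 2.02, 0.106 and 3.52 CPM. The EM libraries had 8.48 and 11.4 CPM, the E2 libraries 10.0 and 6.97 CPM, and the EM+E2 libraries 11.9 and 8.73 CPM. All exposed libraries lay above all solvent libraries, as for 26.2 to 33.5 percent of all genes.

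The rise of aldh1a3 passed in EM (log2 fold change 2.40, SE 0.72, edgeR adjusted p = 0.0305) and in EM+E2 (2.47, SE 0.72, edgeR adjusted p = 0.0286). In E2 the log2 fold change was 2.14 (SE 0.72, edgeR adjusted p = 0.11), which passed in DESeq2 (0.0387), with the recovered reads, which also lack DMSO replicate 3 (edgeR 0.0151), and with the count table without DMSO replicate 3 (0.0454). Both calls were close to the threshold. That in EM was lost without DMSO replicate 1, without either EM library or without either E2 library (edgeR adjusted p = 0.0512 to 0.134), and that in EM+E2 without DMSO replicate 1, E2 replicate 1 or either EM+E2 library (0.0581 to 0.141), with log2 fold changes of 2.22 to 2.69. At 32 d the DMSO libraries had 9.67, 0.410 and 12.2 CPM, the lowest being replicate 2, and all treatments overlapped them.

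Aldh1a2 (ENSDARG00000053493) makes most of the retinoic acid of the early vertebrate trunk. At 64 d the DMSO libraries had 8.60, 5.10 and 20.8 CPM, the EM libraries 26.6 and 26.4 CPM, the E2 libraries 19.7 and 16.8 CPM and the EM+E2 libraries 21.3 and 27.1 CPM. EM and EM+E2 lay above the solvent, as did 33.2 and 33.5 percent of all genes, and E2 overlapped it. The edgeR log2 fold change was 1.21 in EM (SE 0.43, adjusted p = 0.0556), 1.08 in EM+E2 (SE 0.43, adjusted p = 0.0802) and 0.63 in E2 (SE 0.43, adjusted p = 0.357), so none passed. Without DMSO replicate 3, the highest solvent library, EM and EM+E2 passed, with log2 fold changes of 1.83 (edgeR adjusted p = 0.00395) and 1.70 (0.00582).

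The level of aldh1a2 depends on the table. After scaling to library totals, the reads recovered from the authors' normalized table gave 2 to 12.5 times the level of the count table (median 3.36 over 54 libraries), while for the other 6 members the median ratio was 1.00 to 1.09. The edgeR log2 fold changes from the recovered reads at 64 d were 1.06 in EM (adjusted p = 0.0288) and 0.97 in EM+E2 (adjusted p = 0.0407), both of which passed. That fit also lacked DMSO replicate 3, so the change of table and the missing library cannot be told apart there. At 2 d the 5 libraries with few liver marker reads had 4.81 to 13.3 CPM of aldh1a2 and the others 20.7 to 27.1 CPM, in every treatment that had both. The part of that difference in the 2 d comparisons was not tested.

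**Figure D2:**
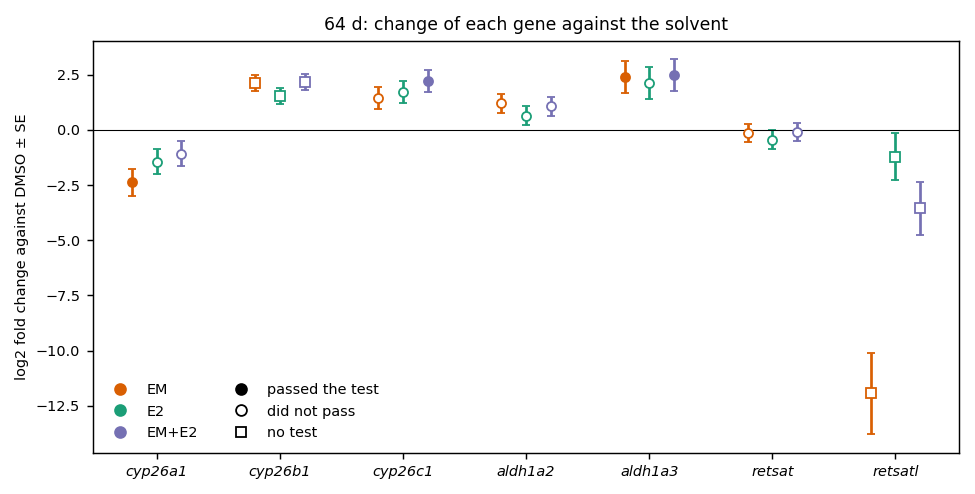
Log2 fold change against DMSO at 64 d (points, with bars of 1 SE, from edgeR's fit) of the 7 genes in EM, E2 and EM+E2. Filled circles passed at an adjusted p under 0.05, open circles did not, and open squares are the genes described without a test. Cyp26b1, cyp26c1, aldh1a2 and aldh1a3 lie above 0 in all 3 treatments, cyp26a1 and retsatl below it, and retsat within 2 SE of it.

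Retsat (ENSDARG00000070140), the gene of retinol saturase, rose with age in the solvent, and no comparison of treatments passed for it. In DMSO its mean level was 1.50 CPM at 2 d, 3.62 ± 1.59 CPM at 8 d, 5.13 ± 1.88 CPM at 16 d, 33.9 ± 21.5 CPM at 32 d and 106 ± 34.9 CPM at 64 d (n = 3 at each age from 8 d). The 16 d libraries had 4.40, 3.73 and 7.27 CPM, those at 32 d 57.3, 15.0 and 29.3 CPM, and those at 64 d 76.9, 145 and 96.5 CPM, so no 2 of these ages overlapped. Over all genes 4.09 percent rose without overlap from 16 to 32 d, and 18.2 percent from 32 to 64 d. The step to 32 d passed (log2 fold change 2.95, SE 0.47, edgeR adjusted p = 0.00444), as did that to 64 d (1.54, SE 0.44, adjusted p = 0.0241). The first call held whichever library was left out, and the second was lost without DMSO 32 d replicate 3 (edgeR adjusted p = 0.0833) or DMSO 64 d replicate 2 (0.107).

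The exposed fish reached like levels. At 64 d retsat stood at 102 ± 33.2 CPM in EM, 86.5 ± 44.9 CPM in E2 and 104 ± 5.03 CPM in EM+E2 (n = 2 each), with edgeR log2 fold changes against DMSO of -0.15 (SE 0.41), -0.44 (SE 0.42) and -0.11 (SE 0.41). None passed, which does not show that they were alike. From 32 to 64 d the edgeR log2 fold change was 2.03 in EM (SE 0.48, adjusted p = 0.0718), 0.88 in E2 (SE 0.47, adjusted p = 0.301) and 1.49 in EM+E2 (SE 0.47, adjusted p = 0.257), and none passed. That in EM passed in DESeq2 (0.00527), with the recovered reads (edgeR 0.0469) and without DMSO 32 d replicate 2 (0.0455). The low point of retsat was EM+E2 at 2 d, with 3 reads and 0 reads in its 2 libraries, against 27 reads over the 2 DMSO libraries. Per counted read, E2 at 2 d had 16.3 times the level of EM+E2 (95% exact interval 5.29 to 81.6, for counting error only and not the spread between libraries). That difference did not pass in edgeR (adjusted p = 0.662), and it passed in DESeq2 (adjusted p = 0.0432) and with all libraries in 1 edgeR fit (0.0232).

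Across the steps of age in DMSO, 4 of the 20 tests of the 5 members passed: retsat at 32 d and at 64 d, and cyp26a1 and cyp26c1 at 64 d. Over all genes 21.4 percent passed from 2 to 8 d, 4.62 percent from 8 to 16 d, 2.00 percent from 16 to 32 d and 21.2 percent from 32 to 64 d. From 32 to 64 d in the exposed fish 0 of 15 tests passed (edgeR; 3 at an unadjusted p under 0.05, 1 by DESeq2), where 0.455 percent of all genes passed in EM, 4.55 percent in E2 and 0.941 percent in EM+E2. At 64 d, 2 of 5 members passed in EM against DMSO, 0 of 5 in E2 (edgeR; 3 at an unadjusted p under 0.05, 2 by DESeq2) and 2 of 5 in EM+E2. Over all genes 31.2 percent passed in EM, 0.00468 percent in E2 and 30.5 percent in EM+E2, so the members' share of calls in EM and EM+E2 is near that of all genes. The share in E2 depends on the method, as 5992 of 21383 genes had an unadjusted p under 0.05 in edgeR and DESeq2 called 2624. Neither EM+E2 against EM nor EM+E2 against E2 gave a call at 64 d among the members or all genes (edgeR, 0 percent; for all genes 761 and 1952 at an unadjusted p under 0.05, and 163 and 324 by DESeq2).

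At the younger ages no tested member passed for treatment. Over 15 comparisons at 2, 8 and 16 d, 0 of 75 tests passed (edgeR; 6 at an unadjusted p under 0.05, 1 by DESeq2), and at 32 d 0 of 25 (2 at an unadjusted p under 0.05, 0 by DESeq2). Over all genes 0 to 0.0203 percent passed in those early comparisons (at 8 d 0.00493 percent in EM+E2 against DMSO and against EM, all lower), and 0.217 percent in EM and 0.250 percent in EM+E2 against DMSO at 32 d. At 8 d cyp26c1 had 17.0, 14.2 and 16.6 CPM in DMSO and 3.52, 6.11 and 9.13 CPM in EM+E2, without overlap (11.4 percent of all genes lay wholly below DMSO there), and a log2 fold change of -1.29 (SE 0.41, edgeR adjusted p = 0.529). It was -1.66 (edgeR adjusted p = 0.354) without EM+E2 replicate 3, the library with few liver marker reads. The interaction of EM and E2, the departure of EM+E2 from the sum of both effects, passed in 0 of 25 tests over the 5 ages (edgeR; 2 at an unadjusted p under 0.05, 1 by DESeq2). The test that DESeq2 called was that of cyp26a1 at 64 d (edgeR log2 value 2.75, SE 0.85; DESeq2 2.91, adjusted p = 0.046), and 0 percent of all genes passed there in edgeR (3108 at an unadjusted p under 0.05, 372 by DESeq2).

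Retsatl (ENSDARG00000034989), a relative of retsat by its name, had the widest range of the 7 genes across groups. At 2, 8 and 16 d no group had more than 11 reads, and DMSO at 8 d had 0 reads, which allows a level of up to 0.115 CPM at 3 counts over the group. This limit and the read ratios below cover counting error only. Too few reads were counted at these 3 ages for the fits of treatments, which held the other 6 members.

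At 32 d reads appeared in the solvent. DMSO replicates 1, 2 and 3 had 98.5, 1.23 and 55.0 CPM, the E2 libraries 1.35, 0.658 and 1.28 CPM, the EM+E2 libraries 0.859, 0.212 and 0.117 CPM, and the EM libraries 0.106, 0.380 and 0 CPM. DMSO replicate 2, the library that stood apart, was at the level of E2, and the other 2 lay far above all exposed libraries. Per counted read, DMSO had 370 times the level of EM (95% exact interval 126 to 1790, with 3 reads in EM), 139 times that of EM+E2 (77.6 to 280) and 52.8 times that of E2 (35.9 to 81.1). Against DMSO at 16 d, with 4 reads, it was 371 times higher (144 to 1360). Without DMSO 32 d replicate 1 these ratios were 204, 76.7, 29.1 and 204.

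At 64 d the spread grew further. DMSO replicates 1, 2 and 3 had 2700, 759 and 1390 CPM, and the E2 libraries had 718 and 761 CPM. The EM libraries had 0.399 and 0.420 CPM, or 8 reads in all, and EM+E2 replicates 1 and 2 had 5.61 and 279 CPM. EM thus had no library above 1 CPM, and E2 overlapped the lowest solvent library. As a ratio, though not in CPM, the pair in EM+E2 differed from each other more than E2 from DMSO.

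The log2 fold change against DMSO at 64 d was -11.94 (SE 1.84) in EM, -1.22 (SE 1.07) in E2 and -3.56 (SE 1.21) in EM+E2, the last being -8.18 without EM+E2 replicate 2 and -2.58 without replicate 1. From the reads, DMSO was 3970 times above EM (95% exact interval 2010 to 9190). From 32 to 64 d the log2 fold change of retsatl was 4.96 (SE 1.04) in DMSO, or 5.90 without DMSO 32 d replicate 1, 9.11 (SE 1.40) in E2 and 8.55 (SE 1.41) in EM+E2, the last being 3.98 without EM+E2 64 d replicate 2, and 1.54 (SE 2.04) in EM. At 64 d the E2 libraries thus overlapped the lowest DMSO library, with a mean of 740 CPM against 1620 CPM in DMSO. At 32 d they lay far below DMSO replicates 1 and 3, and at the level of DMSO replicate 2.

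Retsatl moved with the markers of oocytes. The 13 oocyte markers, among them zp3b of the egg envelope and h1m of the oocyte's linker histone, summed to 474, 53.4 and 208 CPM in DMSO replicates 1, 2 and 3 at 32 d, and to 4.28 to 9.56 CPM in E2, 2.28 to 4.66 CPM in EM and 1.17 to 5.26 CPM in EM+E2. At 32 d 3 of the 13 were at 0 in DMSO replicate 2, 1 to 5 in the E2 libraries, 5 to 7 in those in EM and 5 to 10 in those in EM+E2. At 64 d 3 of 13 were at 0 in each EM library and none in the others.

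As a share of that marker sum, the retsatl level was 28.7, 19.0 and 20.1 percent in DMSO at 64 d, 22.4 and 24.1 percent in E2 and 18.8 and 25.6 percent in EM+E2. In EM it was 6.15 and 7.55 percent, from 4 reads in each library. At 32 d it was 20.8, 2.30 and 26.5 percent in DMSO, 16.3, 15.4 and 13.4 percent in E2, 2.27, 16.7 and 0 percent in EM and 16.3, 18.2 and 2.56 percent in EM+E2, from 13 reads or fewer in each exposed library. The share thus stayed within 18.8 to 28.7 percent in the 7 libraries of DMSO, E2 and EM+E2 at 64 d, whose retsatl levels spanned 5.61 to 2700 CPM. At 32 d the share was below that range in all 9 exposed libraries and in DMSO replicate 2, which had 53.4 CPM of the markers and 1.23 CPM of retsatl from 9 reads. Whether the number of oocytes accounts for the differences between groups was not tested.

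**Figure D3:**
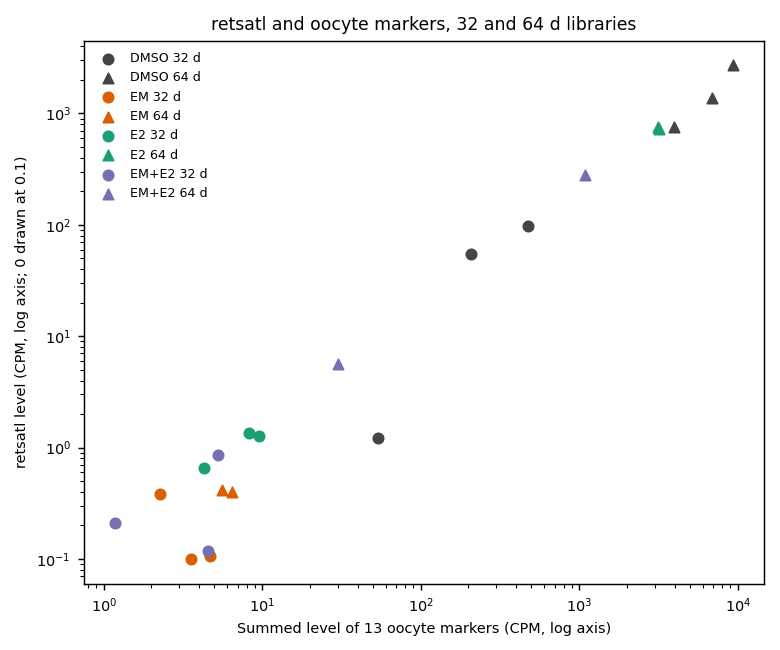
Retsatl level against the summed level of 13 oocyte markers (both in CPM on log axes, with 0 drawn at 0.1) in the libraries of 32 d (circles) and 64 d (triangles), coloured by treatment. Libraries with a higher marker sum have more retsatl, from the EM libraries at the lower left to the DMSO libraries of 64 d at the upper right, and 4 libraries of 32 d have under 3 percent as much retsatl as markers, among them the DMSO library with 53.4 CPM of the markers.

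The levels of testis and germ cell markers also differed between the pools. At 64 d the summed level of 9 testis somatic markers was 20.7 to 29.6 CPM in DMSO, 50.8 and 52.8 CPM in E2, 109 and 120 CPM in EM and 45.9 and 53.4 CPM in EM+E2. Amh, the anti-Müllerian hormone gene of Sertoli cells, was at 0.614 ± 0.322 CPM in DMSO (n = 3), 13.8 ± 3.55 CPM in EM, 1.02 ± 0.730 CPM in E2 and 1.00 ± 0.0216 CPM in EM+E2 (n = 2 each). The 8 germ cell markers summed to 422 to 966 CPM in DMSO, 345 and 390 CPM in E2, 146 and 198 CPM in EM, and 21.2 and 159 CPM in EM+E2. Of these, DDX4, the vasa helicase gene of germ cells, stood at 116 ± 31.2 CPM in DMSO and 42.2 ± 9.69 CPM in EM. The same testis marker sum was 140 to 196 CPM in the 2 d libraries, except for 33.8 CPM in E2 replicate 1, so it does not measure testis alone. Among the 64 d pools, those in EM had the highest testis marker sum and the lowest retsatl and cyp26a1. The part of these cell types in either gene's level was not tested.

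The genes most like the 2 leading members were ranked by Pearson's r of mean log2 CPM over the 20 groups, among 16808 genes. The groups share fish age, treatment and library depth, and r is a description. For cyp26b1 they included FGFR3 (r = 0.945), a fibroblast growth factor receptor, WIF1 (0.928), a secreted Wnt inhibitor, tpbg1b (0.914) and SMAD6 (0.909), an inhibitor of bone morphogenetic protein signalling. For retsatl they were cldnd (0.994), h1m (0.993), zpax1 (0.991), ca15b (0.991) and PABPC1L (0.991), the last a poly(A)-binding protein gene of oocytes. Among the 7 members themselves, cyp26b1 and aldh1a3 had r = 0.82, cyp26c1 and retsat r = -0.80, cyp26a1 and cyp26b1 r = 0.05, and retsat and retsatl r = 0.63.

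The rest of the retinoid pathway was followed in a list of 58 genes of transport, binding, carotenoid cleavage, alcohol and aldehyde dehydrogenation, esterification and nuclear receptors. Against DMSO at 64 d, 14 of 54 tested genes were higher and 4 lower in EM (median log2 fold change 0.56, against 0.21 over all genes), and 16 were higher and 2 lower in EM+E2 (median 0.35 against 0.15). In E2 0 of 54 passed in edgeR, where 0.00468 percent of all genes passed (2624 genes by DESeq2). Over all genes 13.6 percent were higher and 17.6 percent lower in EM, and 13.6 percent higher and 16.9 percent lower in EM+E2. Under another scaling of the libraries (relative log expression) the median of all genes at 64 d moved by -0.15 in EM, -0.12 in E2 and -0.13 in EM+E2, and the folds of single genes move with it.

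Among the nuclear receptors, through which retinoic acid acts, 6 of 10 were higher and 1 lower in EM, and 7 of 10 higher in EM+E2, beside the 13.6 percent of all genes that were higher in each. RARG (ENSDARG00000054003) is a retinoic acid receptor gene, and not the only listed gene of that symbol. At 64 d it was at 0.220 ± 0.117 CPM in DMSO, from 6 reads over 3 libraries. In EM it was at 2.50 ± 0.127 CPM (log2 fold change 3.40, SE 0.67, edgeR adjusted p = 0.00566). In EM+E2 it was at 1.62 ± 0.114 CPM (2.78, SE 0.68, edgeR adjusted p = 0.0152). In E2 it was at 1.47 ± 0.635 CPM, a change that did not pass in edgeR. Both RARG calls were lost with all libraries in 1 fit (edgeR adjusted p = 0.132 and 0.223), and that in EM+E2 without EM+E2 replicate 1 (0.0854) or 2 (0.0697). In DMSO raraa, another receptor gene, fell by 1.98 on the log2 scale from 32 to 64 d (SE 0.48, edgeR adjusted p = 0.0117), from 18.4 ± 2.60 to 6.19 ± 1.68 CPM. This was lost without DMSO 32 d replicate 2 (-1.21, edgeR adjusted p = 0.0746) or 64 d replicate 1 (0.0626). Its levels at 64 d were 15.8 ± 1.00 CPM in EM, 15.1 ± 3.83 CPM in E2 and 19.4 ± 3.76 CPM in EM+E2.

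Of the 17 dehydrogenase genes listed, RDH10 (ENSDARG00000012369), which oxidizes retinol to the retinaldehyde that the aldh1a enzymes use, moved most. Its level in DMSO was 16.6 ± 13.7 CPM at 32 d and 343 ± 181 CPM at 64 d (n = 3 and 3; log2 fold change 4.31, SE 0.62, edgeR adjusted p = 0.000704), and in E2 it rose from 9.83 ± 2.98 to 121 ± 21.8 CPM (3.33, SE 0.61, adjusted p = 0.00272). At 64 d it was at 7.41 ± 2.58 CPM in EM and at 10.9 and 49.0 CPM in the 2 EM+E2 libraries. Against DMSO it fell by 5.59 on the log2 scale in EM (SE 0.76, edgeR adjusted p = 0.00222) and by 3.56 in EM+E2 (SE 0.68, adjusted p = 0.00629).

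SCARB1 (ENSDARG00000101557), a receptor for lipoproteins that also takes up carotenoids, had a like course. In DMSO it stood at 32.1 ± 19.9 CPM at 32 d and 410 ± 157 CPM at 64 d (log2 fold change 3.53, SE 0.37, edgeR adjusted p = 0.000222), and in E2 at 31.2 ± 16.1 and 186 ± 23.6 CPM (2.29, SE 0.51, adjusted p = 0.0128; lost without E2 64 d replicate 1 or 2, at 0.0519 and 0.105). At 64 d EM had 25.8 ± 1.65 CPM (log2 fold change against DMSO -4.04, SE 0.63, edgeR adjusted p = 0.00253) and EM+E2 50.5 ± 45.0 CPM (-3.07, SE 0.59, adjusted p = 0.00663). At 64 d RDH10 and SCARB1 were thus high in the same groups as retsatl, and the oocyte marker sums given above were high in those groups too. At 32 d, where mean retsatl and oocyte markers were higher in DMSO, SCARB1 was at 32.1 CPM in DMSO and 26.6 to 32.5 CPM in the exposures. RDH10 was then at 16.6 ± 13.7 CPM in DMSO and 9.83 to 12.1 CPM in the exposures. RBP4 (ENSDARG00000101199), the retinol carrier of blood, went up instead, from 410 ± 53.2 CPM in DMSO to 1180 ± 120 CPM in EM (1.47, SE 0.29, edgeR adjusted p = 0.00551) and 1230 ± 101 CPM in EM+E2 (1.54, SE 0.29, adjusted p = 0.00606). These RBP4 levels are those at 64 d, where the E2 libraries had 645 and 927 CPM, also above DMSO, a change that did not pass in edgeR. The RBP4 calls were lost with all libraries in 1 fit (edgeR adjusted p = 0.148 and 0.137) and without EM replicate 1 (0.0582) or EM+E2 replicate 1 (0.0572).

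The pathway list changed with age mainly between 2 and 8 d. From 2 to 8 d in DMSO 17 of 56 tested genes rose and 6 fell (median log2 fold change 0.62, against 0.05 over all genes), where 10.4 percent of all genes rose and 11.0 percent fell. Markers of the intestine (7 of 9 rose, median log2 fold change 6.19) and of the retina (6 of 11 tested rose, median 3.51) moved in the same step, and their part in the pathway counts was not tested. Among the genes that rose was TTR, the thyroid hormone carrier that binds RBP4 in mammals (0.0536 ± 0.0758 to 21.8 ± 1.41 CPM, n = 2 and 3; edgeR adjusted p = 0.000396). The carotenoid cleavage gene bco1l rose to 22.9 ± 10.4 CPM from 0.335 ± 0.0189 CPM (log2 fold change 5.88, SE 0.75, edgeR adjusted p = 0.000147) and bco2l from 0.326 ± 0.297 to 6.21 ± 2.01 CPM (4.07, SE 0.63, adjusted p = 0.00058). Rbp3, a retinoid carrier of the space around photoreceptors, rose from 1.50 ± 0.152 to 263 ± 59.9 CPM (7.27, SE 1.02, edgeR adjusted p = 0.000284).

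Later steps held fewer calls. From 8 to 16 d 1 of 56 fell, SCARB1 (log2 fold change -1.40, SE 0.35, edgeR adjusted p = 0.0364), where 0.926 percent of all genes fell. That call was lost without any 1 of the 6 DMSO libraries of 8 and 16 d (edgeR adjusted p = 0.079 to 0.148) and with all libraries in 1 fit (0.0874). From 16 to 32 d 0 of 56 passed in edgeR, where 2.00 percent of all genes passed. From 32 to 64 d 2 of 56 rose and 5 fell in DMSO, beside 10.4 and 10.8 percent of all genes. Among those that fell was rlbp1a, a retinaldehyde-binding protein gene of the eye (-2.07, SE 0.55, edgeR adjusted p = 0.0175), though not without DMSO 32 d replicate 2 (-1.38, adjusted p = 0.0868) or 64 d replicate 1 (0.0827). Of 11 retina markers tested 4 fell in the same step (median -2.40), and their part was not tested. In E2 2 rose and 3 fell over the same ages (3.37 and 1.19 percent of all genes), and in EM and EM+E2 0 of 55 passed (0.455 and 0.941 percent of all genes). Between treatments at 2, 8, 16 and 32 d no pathway gene passed in edgeR. At 2, 8 and 16 d 50 tests had an unadjusted p under 0.05 and DESeq2 gave 2 calls, and at 32 d 16 and 2. Over all genes 0 to 0.0203 percent passed in edgeR at 2, 8 and 16 d, and 0 to 0.250 percent at 32 d. Without EM 8 d replicate 1, which stood apart, there were 6 pathway calls at 2, 8 and 16 d. Without DMSO 32 d replicate 2, which also stood apart, there was 1 at 32 d.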

How the data were processed

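Raw counts of reads per gene, with Ensembl identifiers, were deposited for 32520 genes, and a normalized signal for 32266 genes, of which 27913 are in both. The authors obtained the signal by scaling each library's counts with a single factor. In that deposited signal every value of each column but DMSO 64 d replicate 3 was a whole multiple of the column's smallest step within 0.01 (100 percent), so reads could be recovered for those columns. Fits of the recovered reads therefore lack DMSO 64 d replicate 3. Stranded libraries were sequenced, per the labels' protocols. HISAT2 2.0.5, HTSeq 0.9.1, SAMtools 1.5, Picard, MultiQC 0.9, FastQC 0.11.8 and the build GRCz11 are named, per the submitters' processing notes. The annotation release and counting options are not given in the sources used here, so reads of overlapping genes or close copies may be split.

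For EM+E2 2 d replicate 2 the count column repeats, in each of 32520 genes, the values of replicate 3 at 16 d, and was left out. Symbols came from a supplied table by Ensembl identifier and are spelled as there, often in capitals and without a copy's letter. Of 58 pathway symbols 57 matched, to 58 genes. Marker lists were oocyte, germ cell, testis somatic, retina, brain, liver and intestine.

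Counts were tested with edgeR 4.0.16 (R 4.3.3): TMM scaling, filterByExpr (minimum count 10, total 15), group means, quasi-likelihood F test, Benjamini-Hochberg adjustment over all genes of a contrast. Each age had 1 fit over its treatments, the DMSO libraries had their own, and a joint fit of 32 and 64 d gave steps and differences between those ages. Alternatives were DESeq2 1.42.0, RLE scaling, no filter, a replicate block, the recovered reads, all libraries in 1 fit, and leaving out each library. The script was tested on simulated data. Named beside the 7 members are up to 4 pathway genes per age or step with the smallest adjusted p, the 5 genes most correlated with cyp26b1 and with retsatl over groups (mean of 1 CPM or more; 1 of these is not reported here), and amh, zp3b and ddx4. Members, lists and tests were chosen with earlier results of these data known.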

Additional observations from a re-analysis of the deposited data

Results flagged for a closer look

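Some effects differed between 32 and 64 d by a test of the difference itself (edgeR's quasi-likelihood test on the 32 and 64 d libraries, adjusted over all genes). For EM against DMSO these were cyp26a1 (-3.24 on the log2 scale), RDH10 (-5.05), SCARB1 (-3.91) and raraa (1.82), where 7.29 percent of all genes passed. For EM+E2 against DMSO they were SCARB1 (-2.72) and raraa (2.18), where 2.72 percent of all genes passed. For E2 against DMSO 0 percent of all genes passed. Over these differences 1 of 15 member tests passed, and pathway genes had 5 calls. Both sets of differences share the DMSO libraries, among them DMSO 32 d replicate 2, which stands apart. The cyp26a1 difference no longer passed without EM 64 d replicate 1 (-2.99, edgeR adjusted p = 0.105) or replicate 2 (-3.54, adjusted p = 0.0663), nor did those of RDH10 (0.0514) and SCARB1 (0.0537) in EM without EM 64 d replicate 1. The raraa difference in EM was lost without any EM library of either age, EM+E2 32 d replicate 1 or 2, or DMSO 64 d replicate 1 (edgeR adjusted p = 0.051 to 0.129). In EM+E2 that of raraa was lost without any EM+E2 32 d library, EM+E2 64 d replicate 1, either EM 64 d library or DMSO 64 d replicate 1 (0.051 to 0.287). That of SCARB1 in EM+E2 was lost under relative log expression scaling (0.0507), without the count filter (0.051), with all libraries in 1 fit (0.0974), and without any 1 library (0.0509 to 0.324) other than DMSO 32 d replicate 1, E2 32 d replicates 1 and 2, DMSO 64 d replicate 2 and EM+E2 64 d replicate 2.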

How the results depend on the processing

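For single genes the alternatives were read only for member tests with an unadjusted p under 0.05 and for named pathway genes that had passed. Members with smaller effects were not looked at, and pathway genes could only keep or lose a call. Within that choice no gene with a test changed sign, while some cyp26b1 fold changes near 0 did. Of these single-gene outcomes 1074 kept their side of the threshold, 92 lost and 25 gained a call. By DESeq2 the calls of members went from 0 to 1 at 2, 8 and 16 d, from 0 to 1 for the interaction, from 0 to 1 for 64 against 32 d in the exposures, and from 1 to 2 for the difference between ages, while pathway calls went from 0 to 2 at 2, 8 and 16 d and from 0 to 2 at 32 d. With the recovered reads members had 9 calls for 4 at 64 d, 1 for 0 from 32 to 64 d and 2 for 1 in the difference, and pathway genes 67 for 36 at 64 d. This setting also lacks DMSO 64 d replicate 3, without which the count table gave 9 member calls at 64 d too. With all libraries in 1 fit there were 1 member and 6 pathway calls for 0 at 2, 8 and 16 d, 21 pathway calls for 36 at 64 d and 3 for 5 from 32 to 64 d in the exposures. The cause of these shifts was not tested. Leaving out 1 library gave 2 to 9 member calls at 64 d (9 without DMSO 64 d replicate 3, and 2 without DMSO 1, EM 1, EM 2, E2 1 or EM+E2 1), 1 to 4 for age steps (1 without DMSO 32 d replicate 3), 0 to 1 from 32 to 64 d in the exposures and 0 to 2 for the difference, and 0 to 0 for members at 2 to 32 d and the interaction. Pathway calls ranged from 0 to 6 at 2, 8 and 16 d (6 without EM 8 d replicate 1) and from 0 to 1 at 32 d (1 without DMSO 32 d replicate 2). At 64 d pathway calls ranged from 18 to 48. Those for age steps in DMSO ranged from 23 to 34, and those from 32 to 64 d in the exposures from 1 to 8. The mean correlation of same-numbered deviations was -0.04 to 0.25 by age, against -0.13 to 0.02 for other numbers. At 16 d the same-numbered values spanned -0.41 to 0.71, too wide to settle whether the replicate numbers pair the libraries. With the replicate block members had 6 calls at 64 d, with aldh1a2 added in EM (1.85, edgeR adjusted p = 0.00856) and EM+E2 (1.73, 0.012). They had 3 in age steps, without cyp26a1 from 32 to 64 d (1.73, edgeR adjusted p = 0.0581). Among named pathway genes the block took the calls of SCARB1 from 8 to 16 d (0.0564) and, for the difference between 32 and 64 d, of raraa in EM (0.0798) and EM+E2 (0.0748) and of SCARB1 in EM+E2 (0.0875). Groups of 2 libraries, and few reads of cyp26c1, aldh1a3, retsatl and RARG, limit these values.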

Other observations

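The level of aldh1a2 was not alone in differing between the deposited tables. Over 20530 genes with 10 or more reads in 10 or more libraries, the level from recovered reads was 1.06 times that from the count table in the median (5th to 95th percentile 0.823 to 4.40), and 15.3 percent of genes differed by more than 2 times upward. The cause was not tested.

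The library of EM+E2 2 d replicate 2, whose count column is a copy, has reads of its own in the normalized table. Scaled to its total of recovered reads (CPM) it held 97.9 of cyp26b1, 22.2 of cyp26a1, 28.0 of cyp26c1, 59.6 of aldh1a2, 7.98 of aldh1a3, 0.614 of retsat and 0.491 of retsatl. The other 2 libraries of that group had 89.9 and 92.4 of cyp26b1 on that scale, and 0.448 and 0 of retsat, from 3 and 0 reads, so retsat was low in all 3.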
